A study of Anguilla japonica with 6 samples.

Results

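The genes sycp3, sycp2l, hormad1 and rec8, which act in the meiotic chromosome axis and in meiotic cohesin, were followed in ovaries and testes of Anguilla japonica, the Japanese eel. They were found by the gene name of the best vertebrate protein hit of each full-length transcript, and 32 of 35011 transcripts carried one of these names, 8 for sycp3, 16 for sycp2l, 7 for hormad1 and 1 for rec8. Values of a gene are sums over its transcripts, and these 4 genes stand among 9375 distinct gene symbols. The fish were farmed silver-stage eels that had received no hormone, and their gonads had differentiated but were still immature. RNA of 3 ovaries from 3 females and 3 testes from 3 males was sequenced on an Illumina instrument, with each fish a biological replicate. Transcripts assembled from PacBio long reads of both gonads served as the reference. The sources used here give no genotype and no age. The comparison addressed sexual dimorphism of the gonads.

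In meiosis, cohesin rings hold sister chromatids together, and each ring is closed by a kleisin subunit, for which germ cells use REC8 in place of or beside the mitotic RAD21. Along this cohesin core an axis forms from the filament proteins SYCP2 and SYCP3 and from HORMAD proteins, which promote programmed DNA breaks and mark chromosomes that have not yet paired. The axes of paired chromosomes become the lateral elements of the synaptonemal complex when SYCP1 zips them together. SYCP2L is a paralog of SYCP2 that is known in mouse as a protein of oocytes.

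Of the 4 genes, 3 were higher in testis and 1 was higher in ovary. The core axis gene sycp3, the HORMAD gene hormad1 and the kleisin gene rec8 were higher in testis, with log2 fold changes of 4.63, 8.21 and 10.77 from the edgeR fit. The oocyte axis gene sycp2l was lower in testis, with a log2 fold change of -5.61. Of all 12109 genes tested with edgeR (quasi-likelihood test, Benjamini-Hochberg adjusted p under 0.05), 46.7% were called, 25.2% as higher in testis and 21.5% as higher in ovary. Here and below, all genes tested include transcripts without a symbol, each counted singly, beside the sums per symbol.

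The libraries held 11913969 to 18508307 estimated counts. The FPKM sums of the libraries differed, from 721650 to 1312673, and were lower in testis 1, at 770032, than in testis 2 and testis 3, at 1218425 and 1312673. Across genes, testis 1 also stood apart from the other testes, with Spearman correlations of 0.789 and 0.778 against 0.919 between testis 2 and testis 3. Ovaries correlated with each other at 0.903 to 0.921. A value without testis 1 is therefore given where leaving it out changed a call or a direction or moved a fold change by over 1.5 times. Of the tissue markers, 8 of 10 oocyte genes were higher in ovary, and 6 of 6 matched spermatid and sperm genes and 6 of 7 testis somatic cell genes were higher in testis. Of 2 matched ovary somatic cell genes none was called, and their summed FPKM was 24.4 to 46.7 in the ovaries and 0.26 to 194 in the testes. Red blood cell genes summed to 173 to 209 FPKM in the ovaries and 1416 to 3888 FPKM in the testes, with 2 of 4 matched genes higher in testis. In testis 1 the sum was mostly cahz, at 3723 FPKM, while hbb1 had 160 FPKM there against 147 to 182 FPKM in the ovaries. In testes 2 and 3 it was mostly hbb1, at 3679 and 1267 FPKM. The other matched genes, alas2 and epb41, were not called. Leukocyte genes summed to 29.1 to 64.3 FPKM and 70.9 to 352 FPKM, with both genes tested higher in testis. The summed FPKM of the oocyte genes was 138323 to 157963 in the ovaries and 626, 23001 and 4517 in testes 1 to 3. That of the 6 matched general germ cell genes was 428 to 515 in the ovaries and 2761, 1884 and 2061 in the testes. Of these 6 genes, 5 were higher in testis and 1, nanos3, was higher in ovary. The part of these differences in marker genes in the results below was not tested. In bulk tissue, fewer cells of a type and less RNA per cell cannot be told apart. The median log2 fold change of all tested genes was 0.10, and it was 0.28 with upper quartile scaling, 0.25 on log2(FPKM + 1) and -0.16 on log2(TPM + 1). None of the 4 genes changed direction under these scalings.

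SYCP3 builds the filaments of the axis and of the lateral elements. The sycp3 level, as FPKM summed over 8 transcripts, was 8.04, 11.54 and 4.86 in ovaries 1 to 3 and 363.22, 145.03 and 218.06 in testes 1 to 3. Every testis lay above every ovary, and testis 1 was the highest library, at 2.0 times the mean of the other testes. The mean was 8.15 ± 3.34 FPKM in ovary and 242 ± 111 FPKM in testis (SD, n = 3 each), a 29.7-fold ratio of mean FPKM, or 22.3-fold without testis 1. The log2 fold change was 4.63 (SE 0.44, adjusted p = 0.000956 by edgeR's quasi-likelihood test). The gene was also present in ovary, with 122 to 253 estimated counts per library, and 39.2% of symbols had a lower mean FPKM there. In testis it stood at rank 271 of all symbols by mean FPKM.

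HORMAD1 is a HORMA-domain protein of axes that have not yet synapsed. Its level was 0.41, 0.21 and 0.43 FPKM in ovaries 1 to 3 and 200.64, 74.09 and 99.95 FPKM in testes 1 to 3. All testes were far above all ovaries, with no overlap. Means were 0.350 ± 0.122 and 125 ± 66.9 FPKM (SD, n = 3 each), a 357-fold ratio, or 249-fold without testis 1. The log2 fold change was 8.21 (SE 0.58, adjusted p = 0.000698 by edgeR's quasi-likelihood test). The ovary values rest on 17, 6 and 15 estimated counts, against 2288 to 5587 in testis. Within the testes sycp3 and hormad1 kept a similar proportion, and their FPKM ratio was 1.81, 1.96 and 2.18 in testes 1 to 3.

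REC8 is the meiotic kleisin of cohesin. The gene was represented by 1 transcript of 3664 bases with 3 full-length reads, built from testis long reads. It had 0, 0.02 and 0.03 FPKM in ovaries 1 to 3 and 109.77, 9.95 and 9.17 FPKM in testes 1 to 3. The groups did not overlap, and testis 1 was 11.5 times the mean of the other testes. The ovary values are 0, 1 and 2 estimated counts, and the testis values are 5099, 453 and 372. Relative to library totals, the testes held 2585 times the ovary counts, with an exact 95% counting interval of 884 to 12537, and without testis 1 the ratio was 554 (189 to 2692). Without ovary 1, ovary 2 or ovary 3 it was 1708, 2726 and 4933. The log2 fold change of the fit was 10.77 (SE 1.57, adjusted p = 0.00259 by edgeR's quasi-likelihood test). It was 8.72 without testis 1, 10.12 without ovary 1 and 11.48 without ovary 3, and a fitted value at so few counts depends on the prior count. Mean FPKM was 0.0167 ± 0.0153 in ovary and 43.0 ± 57.9 in testis (SD, n = 3 each), and the testis SD exceeded the testis mean.

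The excess of testis 1 was larger for rec8 than for most genes. Over 8917 symbols with a mean testis FPKM of at least 1, the median ratio of testis 1 to the mean of the other testes was 1.15, and 1.53% of symbols had a higher ratio than rec8. The corresponding share was 18.2% for hormad1 and 23.3% for sycp3. Relative to hormad1, rec8 was at 0.547 in testis 1 and at 0.134 and 0.0917 in testes 2 and 3. In the same libraries the summed FPKM of the spermatid and sperm genes was 596, 224 and 198, a testis 1 ratio of 2.83, and that of the testis somatic cell genes was 145, 160 and 460, a ratio of 0.468. Their part in the rec8 values was not tested.

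SYCP2L is the paralog of SYCP2 that mouse oocytes use. Its level was 150.49, 139.56 and 146.13 FPKM in ovaries 1 to 3 and 0.02, 6.66 and 2.63 FPKM in testes 1 to 3. The ovaries were close to each other and lay above every testis, and testis 1 was the lowest library. The mean was 145 ± 5.50 FPKM in ovary, a coefficient of variation of 3.78%, and 3.10 ± 3.35 FPKM in testis (SD, n = 3 each), so the ovary mean was 46.9 times the testis mean, or 31.3 times without testis 1. The log2 fold change was -5.61 (SE 1.41, adjusted p = 0.0164 by edgeR's quasi-likelihood test). Without testis 3 it was -5.50 and no longer passed the test (adjusted p = 0.0632), and without testis 2 it was -6.86 (adjusted p = 0.0266). Testis 1 held 1.04 estimated counts, testis 2 held 244 and testis 3 held 87, against 5421 to 6555 in the ovaries. Summed over transcripts, the estimated counts of sycp2l were 0.03 to 0.19 away from a whole number in each library, while those of the other genes were at most 0.01 away. Whether reads of sycp2l were shared with transcripts of other names was not tested.

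**Figure D1:**
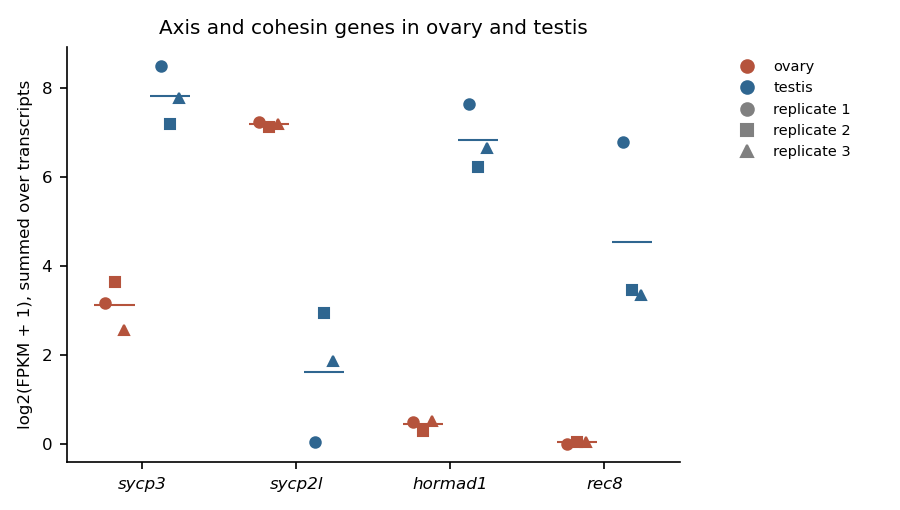
Levels of the 4 genes in each library as log2(FPKM + 1), summed over the transcripts of a gene. Points are libraries, colours are tissues, symbols are replicates and lines are the means of the log2 values per tissue. The testes lie above the ovaries for sycp3, hormad1 and rec8 and below them for sycp2l, and testis 1 is the highest testis for the first group and the lowest for sycp2l.

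The order of the genes by FPKM, which is scaled for length, was the same in the 3 libraries of a tissue and differed between tissues. In each ovary sycp2l was highest, followed by sycp3, hormad1 and rec8. In each testis sycp3 was highest, followed by hormad1, rec8 and sycp2l. In ovary the library ranges of these 4 levels did not overlap. In testis neighbouring levels overlapped in range for sycp3 with hormad1 and for hormad1 with rec8, but sycp2l lay below the range of rec8. The share of sycp2l in the summed FPKM of the 4 genes was 94.7%, 92.2% and 96.5% in ovaries 1 to 3 and 0.00297%, 2.83% and 0.797% in testes 1 to 3. The means were 94.5 ± 2.14% and 1.21 ± 1.46% (SD, n = 3 each; exact two-sided permutation p = 0.1, the smallest that 3 against 3 allows).

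The trace of sycp2l in each testis was set beside oocyte genes. As a percentage of the ovary mean FPKM, sycp2l stood at 0.0138, 4.58 and 1.81 in testes 1 to 3. The egg envelope genes zp1 to zp4 ranged from 0 to 0.717 in testis 1, from 3.15 to 17.7 in testis 2 and from 0.155 to 5.26 in testis 3. The order of the testes, with testis 2 highest and testis 1 lowest, was the same for sycp2l, for zp1, zp2, zp3 and zp4, for the oocyte growth factors gdf9 and bmp15, for zar1 and mos, which act in the oocyte and egg, and for nanos3, a germ cell gene higher in ovary here. It differed for the oocyte transcription factor figla (2.39, 11.03 and 12.6) and the yolk receptor gene vldlr (5.36, 5.49 and 5.999), where testis 3 was highest. With 3 testes this is a description of the libraries, and the part of oocyte RNA in the sycp2l values of the testes was not tested.

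**Figure D2:**
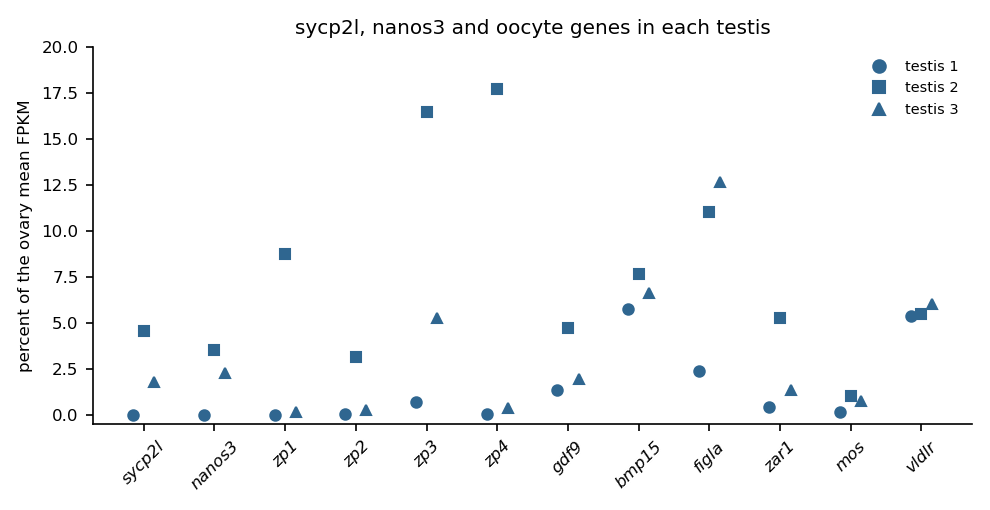
Level of sycp2l, nanos3 and 10 oocyte genes in each testis as a percentage of the ovary mean FPKM of the same gene. Symbols are the testes. Testis 1 is the lowest for each gene, and testis 2 reaches 16.4% for zp3 and 17.7% for zp4 against 4.58% for sycp2l.

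Taken transcript by transcript, the 4 genes split by the tissue whose long reads built them. All 16 sycp2l transcripts were built from ovary reads, and the 16 transcripts of sycp3, hormad1 and rec8 were built from testis reads, so counts of either side were measured on models from the tissue where the gene was high. Fitted on testis-built transcripts alone, the log2 fold changes were 3.15 for sycp3, 6.68 for hormad1 and 9.04 for rec8, each past the threshold. On ovary-built transcripts alone that of sycp2l was -4.96. The counts of the members are the same in these fits, and only the other transcripts and the scaling differ. They therefore cannot check the effect of the tissue whose long reads built the models. Of the 32 transcripts, 24 passed the filter on low counts. In the transcript test, 10.7% of 30738 transcripts were called, 6.26% as higher in testis and 4.4% as higher in ovary. Among the members 12 were higher in testis, 1 was higher in ovary, 11 were not called and 8 were not tested. By gene, 6 of 8 sycp3, 5 of 7 hormad1 and the rec8 transcript were higher in testis, and 1 of 16 sycp2l transcripts was higher in ovary. The adjusted transcript calls were less stable than the gene calls. Leaving out 1 library left 0 calls for 5 of the 6 libraries and 4 without testis 1, and with no filter 7 were called. The unadjusted p of edgeR was under 0.05 for 20 member transcripts with all libraries and for 19 to 22 with 1 left out. The share of all transcripts called in those fits is not given. Of the 32 transcripts, 21 rest on 2 full-length reads each.

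The sycp2l transcripts of the 3 ovaries differed although their sum was nearly equal. In ovary 1 the transcript of 2712 bases led with 68.86 FPKM, 45.8% of the gene, and it had 1.74 and 0.66 FPKM in ovaries 2 and 3. The transcript of 2615 bases led in ovary 2 with 40.86 FPKM, 29.3% of the gene, and it was listed at 0 in both other ovaries. The transcript of 2441 bases led in ovary 3 with 58.83 FPKM, 40.3% of the gene, against 0.88 and 0.44 FPKM in ovaries 1 and 2. Thus a different transcript was leading in each fish. The second transcripts differed too, with 2788 bases in ovary 1, 2991 bases in ovary 2 and 2899 bases in ovary 3. Between 12 and 13 of the 16 transcripts had a value above 0 in an ovary, and 4 to 6 of them made up 90% of the gene.

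This spread was measured as the overlap of transcript shares between pairs of fish, where 100% means the same shares. For sycp2l the mean overlap of the ovary pairs was 8.43%, with pairs from 5.09% to 13.2%. Genes compared had at least 5 transcripts, and in the tissue a mean of at least 10 FPKM and a value above 0 in each library. Over 1729 such genes in ovary, the median overlap was 53.4% (quartiles 37.2% and 67.2%), and 1.68% of genes were lower than sycp2l. Among 179 genes whose number of transcripts was within 4 of that of sycp2l, the median was 38.8% and 7 genes were lower. In the testes the overlap was 63.6% for sycp3 and 51.6% for hormad1, against a median of 61.0% over 1770 genes. The transcript called higher in ovary, of 2374 bases, had 1.95, 7.57 and 1.72 FPKM in the ovaries and 0, 0.04 and 0 FPKM in the testes (log2 fold change -8.05, SE 1.62, adjusted p = 0.0374 by edgeR). The transcript with the most full-length reads, of 2650 bases with 31 reads, had 0, 1.21 and 20.64 FPKM in the ovaries and did not lead in any of them. The sources used here do not say how the authors divided reads among such similar transcripts, and the part of that step in this spread was not tested.

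**Figure D3:**
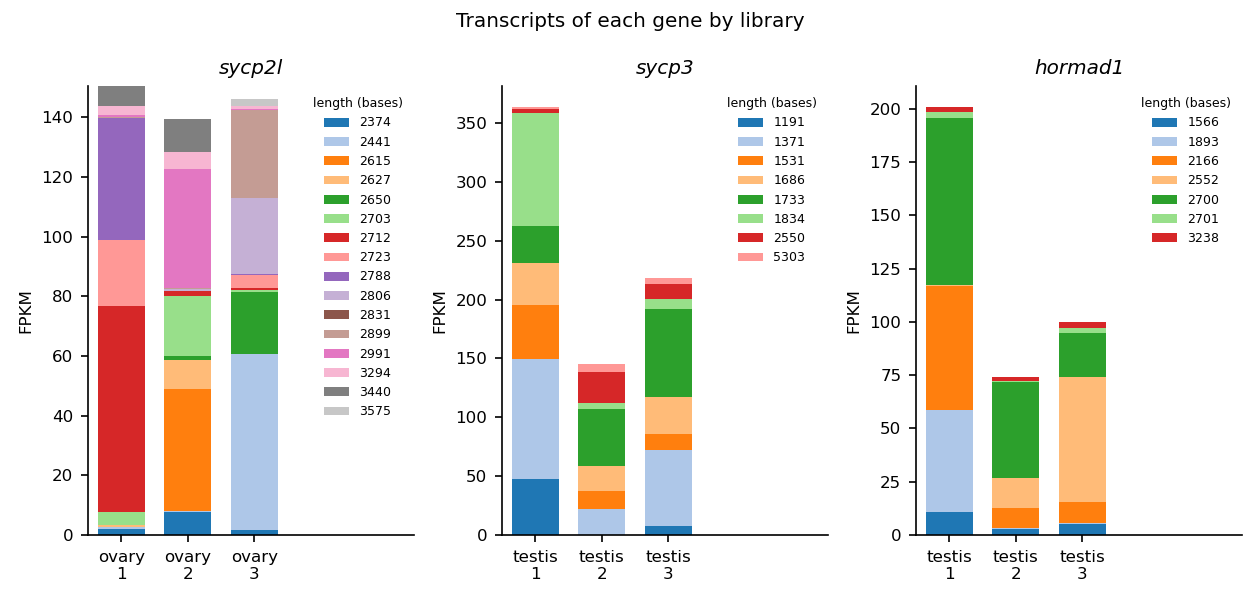
FPKM of each transcript of sycp2l in the 3 ovaries and of sycp3 and hormad1 in the 3 testes, stacked to the sum of the gene, with colours for transcript length in bases within a panel. The sycp2l bars are nearly equal in height but made of different transcripts in each ovary, led by those of 2712, 2615 and 2441 bases.

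The sycp3 transcripts fell into groups by their best nucleotide hit, a division chosen after the values were seen and therefore given without a test. The 3 transcripts nearest to scp3 of the swamp eel Monopterus albus (1191, 1733 and 2550 bases) summed to 6.20, 7.80 and 3.83 FPKM in the ovaries and 82.04, 75.12 and 94.91 FPKM in the testes. The 4 transcripts nearest to scp3 of the minnow Gobiocypris rarus (1371, 1531, 1686 and 1834 bases) summed to 1.43, 3.32 and 0.91 FPKM in the ovaries and 279.42, 63.71 and 117.93 FPKM in the testes. The sum of the first group was about level among the testes, at 84.02 ± 10.04 FPKM (SD, n = 3). That of the second group in testis 1 was 3.08 times the mean of the other testes. Both statements hold for FPKM, whose library sums differed, and were not checked on counts or TPM. The level sum of the first group was made of transcripts that differed. That of 1191 bases was highest in testis 1, and those of 1733 and 2550 bases were lowest there, the latter with 2.75, 26.84 and 12.05 FPKM in testes 1 to 3. The first group made up 67.6% to 78.8% of sycp3 in the ovaries and 22.6%, 51.8% and 43.5% in the testes. The second held 17.8% to 28.8% in the ovaries and 76.9%, 43.9% and 54.1% in the testes. All 4 transcripts of the second group carried a protein domain hit in the annotation and the others had none. The remaining transcript, of 5303 bases, had no nucleotide hit, with 0.12 to 0.42 FPKM in the ovaries and 1.76 to 6.20 FPKM in the testes.

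Within the second group, the transcript of 1531 bases was listed at 0 in each ovary and had 46.16, 15.64 and 14.13 FPKM in the testes. The transcript of 1834 bases had 96.16, 4.84 and 8.48 FPKM in the testes and at most 0.21 FPKM in an ovary. The transcript of 1686 bases was the one most present in ovary, with 1.22, 3.09 and 0.81 FPKM there and 35.45, 21.53 and 31.22 FPKM in the testes. In the first group, that of 1733 bases led the gene in testes 2 and 3 with 33.3% and 34.4%, while that of 1191 bases ran from 0 FPKM in testis 2 to 47.78 FPKM in testis 1 and overlapped the ovaries, at 2.17 to 3.48 FPKM.

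Among the hormad1 transcripts, 6 had hits named hormad1 and 1, of 2166 bases, had a hit named hormad1-like. The latter had 0.03, 0 and 0.14 FPKM in the ovaries and 58.38, 9.40 and 9.64 FPKM in the testes, so testis 1 was 6.13 times the mean of the other testes, against 1.84 for the other 6 transcripts together. It made up 29.1%, 12.7% and 9.64% of the gene in testes 1 to 3. The transcript of 2700 bases, with 57 of the 69 full-length reads of the gene, led in testes 1 and 2 with 78.34 and 45.04 FPKM. In testis 3 the transcript of 2552 bases led with 58.65 FPKM, and it had 0.17 FPKM in testis 1. That of 1893 bases showed the reverse, with 47.97 FPKM in testis 1 and 0.49 and 0.64 FPKM in the others. Each of the 7 hormad1 transcripts lay higher in all testes than in all ovaries, though that of 2552 bases was not tested. So did 23.9% of all transcripts tested, which include ovary-built and testis-built ones.

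**Figure D4:**
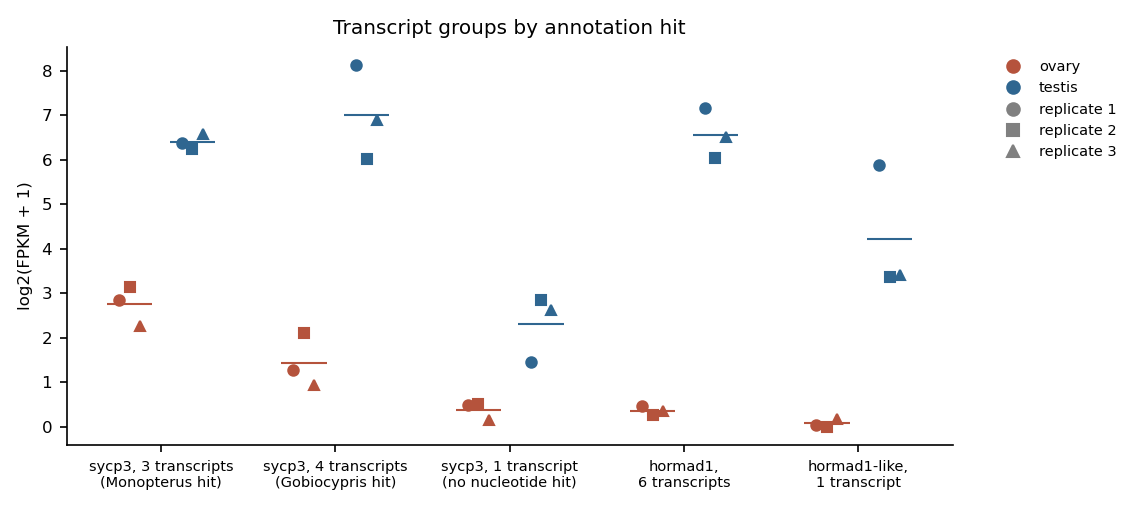
Transcript groups of sycp3 and hormad1 by annotation hit, as log2(FPKM + 1) in each library. Points are libraries, colours are tissues, symbols are replicates and lines are means of the log2 values per tissue. Testis 1 is the highest testis for the sycp3 group with the Gobiocypris hit, for hormad1 and for hormad1-like. The testes are close together for the sycp3 group with the Monopterus hit.

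The other genes of the axis and of cohesin were taken from lists of 68 symbols, of which 36 matched and were tested, the 4 members included. Of these 36 genes, 24 were higher in testis (66.7%, against 25.2% of all genes), 2 were higher in ovary (5.56%, against 21.5%) and 10 were not called, and the median log2 fold change was 2.48. Without the 4 members it was 21, 1 and 10 of 32 genes, with a median of 2.18. Testis 1 was the highest testis for 29 of the 36 genes, as for 50.5% of the 8917 symbols above. Of the 36 genes, 24 had all testes above all ovaries in FPKM (66.7%, against 35.1% of all genes). The reverse held for 2 (5.56%, against 24.4%). These were the 24 and the 2 that were called on the same libraries, so the non-overlap is no separate support.

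Of the 13 synaptonemal complex and axis genes, 9 were higher in testis, 1 (sycp2l) was higher in ovary and 3 were not called. The central region gene sycp1, which encodes the transverse filament, had 0.553 ± 0.438 FPKM in ovary and 120 ± 132 FPKM in testis (SD, n = 3 each; log2 fold change 7.30, adjusted p = 0.00309 by edgeR). Its testis values were 273.07, 40.13 and 47.61 FPKM, and the log2 fold change was 6.05 without testis 1 and 8.04 without ovary 1. The axis partner of sycp3, sycp2, had 120.83, 80.68 and 40.74 FPKM in the testes and 0.37 to 0.55 in the ovaries (log2 fold change 7.29, or 6.02 without testis 1). The central element gene syce3 had 94.88, 119.99 and 82.27 FPKM in the testes and at most 0.68 in an ovary (log2 fold change 7.80). Thus sycp2 and its paralog sycp2l were high in opposite tissues: sycp2l made up 99.6% to 99.8% of their summed FPKM in the ovaries and 0.0165%, 7.63% and 6.06% in the testes.

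Of the genes that act with the axis in forming DNA breaks, ankrd31 (log2 fold change 4.69), rec114 (3.75, or 5.01 without ovary 3) and mei4 (2.33, or 2.92 without ovary 2) were higher in testis and ccdc36, an older symbol of iho1, was not called. The central element gene syce1 was higher in testis (2.63). Of these, rec114, mei4 and syce1 lie outside the rule for named genes and were named after their values were seen, as were the 3 genes not called. Those were trip13, the ATPase that removes HORMADs, with 22.4 ± 7.61 FPKM in ovary and 22.2 ± 19.8 FPKM in testis (adjusted p = 0.706 by edgeR), ccdc36 (adjusted p = 0.222) and the central element gene tex12 (adjusted p = 0.292). The trip13 testis values were 44.70, 7.55 and 14.29 FPKM, and its log2 fold change was -0.30, or -1.23 without testis 1 (adjusted p = 0.0525 by edgeR). That of ccdc36 was -0.76. It was called lower in testis without testis 1 (-1.38, adjusted p = 0.0206 by edgeR) and on ovary-built transcripts (-1.69, adjusted p = 0.0364 by edgeR). The tex12 testis values were 105.41, 7.88 and 11.94 FPKM against 10.88 to 16.55 in the ovaries, and without testis 1 its log2 fold change was -0.68 (adjusted p = 0.263).

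Of 7 listed meiotic cohesin symbols 2 matched, rec8 and smc1b, and both were higher in testis. Of 16 matched genes of general cohesin and its regulators, 9 were higher in testis, 1 was higher in ovary and 6 were not called, with log2 fold changes of those 6 from -0.42 to 1.61. The meiotic subunit smc1b had 9.86, 11.60 and 22.48 FPKM in the ovaries and 226.20, 72.32 and 86.63 FPKM in the testes (log2 fold change 2.83, adjusted p = 0.00838 by edgeR, or 2.16 without testis 1). The shared core subunit smc3 stood at 12.96 ± 3.70 and 137 ± 83.5 FPKM (SD, n = 3 each; log2 fold change 3.09, adjusted p = 0.00347 by edgeR). The mitotic counterpart of smc1b, smc1a, was not called, at 14.0 ± 3.25 and 21.3 ± 6.49 FPKM (log2 fold change 0.39, adjusted p = 0.338). As a share of smc1b and smc1a together, smc1b made up 47.1%, 46.3% and 56.2% in the ovaries and 88.8%, 78.8% and 84.4% in the testes.

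The general kleisin gene rad21 was also higher in testis, with 24.42, 23.21 and 19.97 FPKM in the ovaries and 151.86, 202.14 and 313.44 FPKM in the testes (log2 fold change 3.14, adjusted p = 0.00193 by edgeR). Unlike rec8 it was lowest in testis 1. As a share of rec8 and rad21 together, rec8 made up 42.0% in testis 1, 4.69% in testis 2 and 2.84% in testis 3, and at most 0.15% in an ovary. The cohesin subunit gene stag1 (log2 fold change 3.63, or 2.70 without testis 1), the loader genes nipblb (3.03), nipbl (2.93) and mau2 (2.68), the release factor wapl (1.78) and the separase gene espl1 (2.64) were higher in testis. So was stag2 (1.22), whose adjusted p of 0.0263 rose to 0.0967 without ovary 1, 0.0936 without ovary 2, 0.0568 without testis 2 and 0.0789 with a replicate block. Of these, stag1, stag2, nipbl and wapl were named after their values were seen, as was smc1a.

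The other gene higher in ovary was pttg1, which encodes securin, the inhibitor of separase. It had 1195.91, 1293.31 and 1786.87 FPKM in the ovaries and 211.97, 140.03 and 190.33 FPKM in the testes, with no overlap. The log2 fold change was -3.23 (SE 0.35, adjusted p = 0.00123 by edgeR), so securin and separase transcripts differed in opposite directions.

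Of 5 genes that attach telomeres to the nuclear envelope in meiosis, 4 were higher in testis. They were majin (log2 fold change 6.50, or 4.404 without testis 1), terb2 (2.04), sun1 (1.55) and cdk2 (1.44). Like rec8, majin had most of its signal in testis 1, with 75.97, 5.85 and 6.89 FPKM in the testes. The cdk2 activator gene spdya was not called, at 64.1 ± 3.42 FPKM in ovary and 33.5 ± 33.1 FPKM in testis (SD, n = 3 each; log2 fold change -1.29, adjusted p = 0.109 by edgeR), and without testis 1 it was lower in testis (-2.32, adjusted p = 0.00115). It was also called lower in testis by DESeq2 (-1.38, adjusted p = 0.0439) and limma-voom (-1.59, adjusted p = 0.0430). So it was by edgeR on testis-built transcripts (-2.96, adjusted p = 0.00991), while 12 other alternatives left it not called. In the testis-built fit sycp3, hormad1 and rec8 also moved lower with the same counts, from 4.63, 8.21 and 10.77 to 3.15, 6.68 and 9.04. The part of the scaling in this call of spdya was not tested. A gene annotated as ccdc79, an older symbol of terb1 that was looked up after the data were seen, had 7.99 ± 0.707 FPKM in ovary and 40.1 ± 9.03 FPKM in testis (log2 fold change 2.04, adjusted p = 0.00177 by edgeR). Also looked up then was cdca5-b, a form of the listed cohesin regulator symbol cdca5. It had 15.9 ± 7.29 FPKM in ovary and 31.8 ± 19.4 FPKM in testis and was not called (log2 fold change 0.82, adjusted p = 0.234 by edgeR). Several calls of these lists were lost when the fit was limited to the transcripts of 1 tissue's long reads. On ovary-built transcripts cdk2, mau2, stag1, stag2, terb2 and wapl were not called (adjusted p from 0.0667 for wapl to 0.66 for mau2 by edgeR). On testis-built transcripts espl1, mei4, rad21, rec114, smc1b, stag2, syce1 and terb2 were not called (adjusted p from 0.07 for rad21 to 0.526 for terb2 by edgeR). Of these, espl1, mei4 and rec114 had 1 transcript each, so their counts were the same in this fit. Their log2 fold changes were 1.05, 0.78 and 2.21 there, against 2.64, 2.33 and 3.75 on all transcripts. As for the members, only the other transcripts and the scaling differed for these genes. The call of majin was lost under limma-voom (adjusted p = 0.0626) and that of sun1 on log2(TPM + 1) with limma (adjusted p = 0.0614). Among the listed symbols that were not analysed here are hormad2, syce2, rad21l1, stag3 and kash5.

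**Figure D5:**
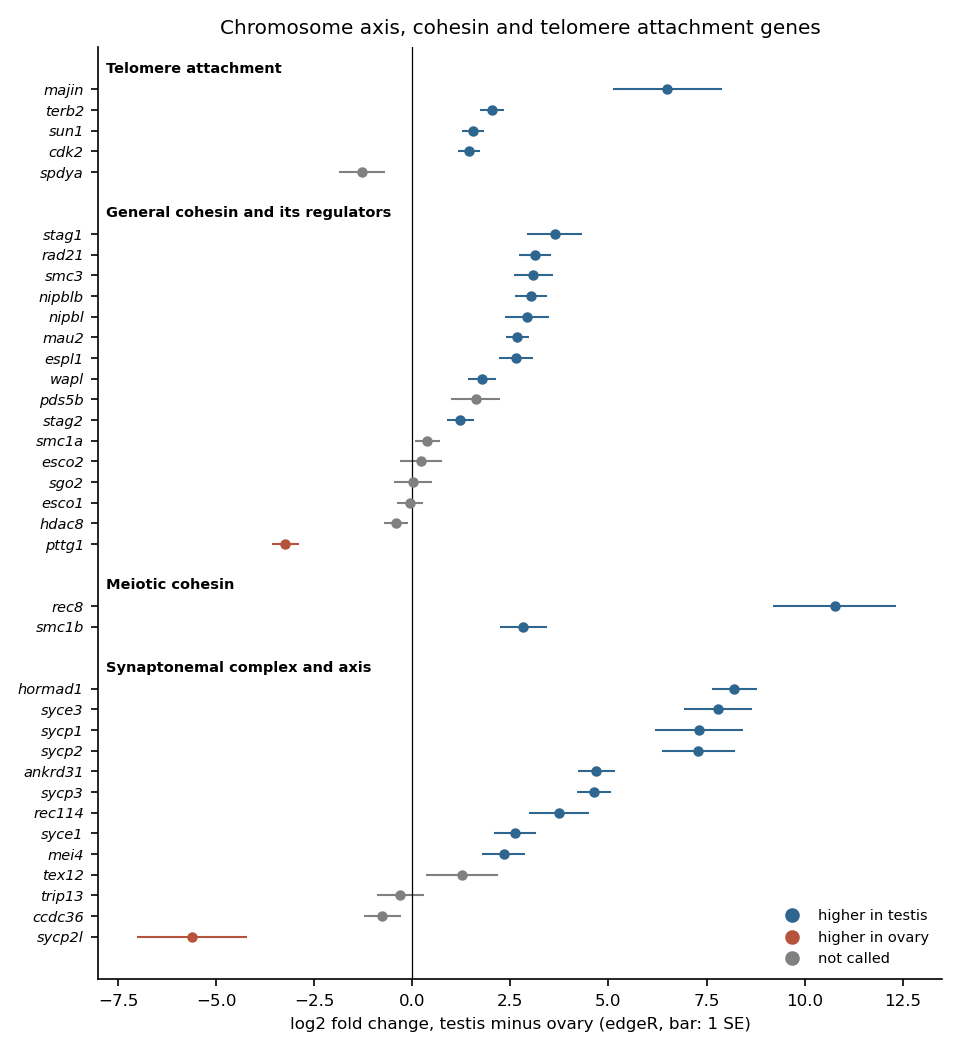
Log2 fold change between testis and ovary, with its SE, of the 36 matched axis, cohesin and telomere attachment genes, from the edgeR fit. Blue marks the 24 genes called higher in testis, red the 2 called higher in ovary and grey the 10 not called. The members rec8 and hormad1 lie farthest to the right, and sycp2l and pttg1 stand at -5.61 and -3.23.

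The genes whose levels varied most like those of the members over the 6 libraries were ranked by Pearson's r of log2(FPKM + 1) among 9148 symbols with a mean of at least 1 FPKM. A high r does not require a similar level or a similar size of difference. The values of r share their libraries and the large difference between tissues, and they are a description. For sycp3 they were ddx17, arid2 and mcm2, with ddx17 at 7.61, 9.28 and 5.60 FPKM in the ovaries and 93.25, 48.91 and 59.58 FPKM in the testes (r = 0.999). For hormad1 they were cdk20, fto and si:ch211-214c7.5. The first, cdk20, had 19.07 to 20.07 FPKM in the ovaries and 46.03 to 57.37 FPKM in the testes (log2 fold change 1.06). The last, si:ch211-214c7.5, had 0, 0.07 and 0 FPKM in the ovaries and 132.19, 51.82 and 64.98 FPKM in the testes. For sycp2l they were kctd1, ifi30 and il17c, and ifi30 had 416.23 to 487.27 FPKM in the ovaries and 3.78, 23.73 and 13.07 FPKM in the testes, with the same order of testes as sycp2l. For rec8 they were hsf5, cdkn2c and ccdc96, and hsf5 had 133.59, 11.50 and 11.06 FPKM in the testes and 0.10 to 0.20 FPKM in the ovaries.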

How the data were processed

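Total RNA was extracted with TRIzol and made into libraries with the NEBNext Ultra RNA kit, per the labels. The submitters' processing notes list HISAT2 2.0.5, featureCounts 1.5.0-p3, fastp and CASAVA 1.8, with no roles. For the genome build and the quantifier, nothing is stated in the sources used here. The deposited table gives estimated counts and FPKM per transcript and library, per the file headers, with transcript length and annotations. The authors' counts are called estimated because only 26.5% to 31.6% of values in a library were whole. The plan had foreseen whole counts.

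A symbol was the gene name of the vertebrate protein hit (31079 transcripts) or otherwise of the nucleotide hit (402). Deposited estimated counts and FPKM were summed per symbol, giving 12905 units with transcripts without a symbol kept single, and counts were then rounded. Differences were coded testis minus ovary and tested with edgeR 4.0.16 in R 4.3.3 (TMM, filterByExpr, robust glmQLFit, glmQLFTest, tissue as the only term), with a Benjamini-Hochberg adjusted p under 0.05 called over 12109 genes or 30738 transcripts. The model was checked on simulated data. DESeq2 1.42.0 and limma 3.58.1 (voom, and log2 of FPKM with pseudocounts of 1 and 0.1, or of TPM) served as alternatives, the last chosen after the data were seen. Tables and figures were made in Python 3.11.15 with numpy 2.4.6, pandas 2.3.3, matplotlib 3.10.9 and scipy 1.17.1. Counting intervals are exact, at 95%, and cover counting error only.

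Members and lists were chosen with earlier results of these data known. Named genes were the members, up to 6 genes per list with the smallest adjusted p, and the 3 genes most like each member. Genes that share a symbol, and near-identical transcripts of a gene, may share reads.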

Additional observations from a re-analysis of the deposited data

How the results depend on the processing

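The 4 genes kept their direction under every alternative that could be fitted, and sycp3, hormad1 and rec8 also passed the threshold in each, with 1 library left out at log2 fold changes of 4.31 to 4.90, 7.83 to 8.397 and 8.72 to 11.48. For sycp2l they ran from -6.86 to -5.03, and without testis replicate 3 the value was -5.50 (adjusted p = 0.0632 by edgeR). DESeq2 gave no adjusted p for rec8, nor for the list genes majin and tex12. In testis 1 these genes stood at 11.5, 11.9 and 10.6 times the mean of the other testes. The part of testis 1 in the missing values was not tested. On log2(FPKM + 1), which compresses low values, the difference was 6.42 for hormad1 and 4.51 for rec8, and limma-voom gave -7.59 for sycp2l. Limited to transcripts built from ovary reads, 10 list genes were called in place of 26 (6 higher in testis, 4 in ovary), and limited to those built from testis reads 15 (14 and 1). List genes that could not be fitted, such as sycp1 and sycp2 on ovary reads, dropped out, so these counts rest on fewer genes than the 26. The share of all genes called is not given for these fits or for those with 1 library left out. In each such fit the members built from the other tissue had no value, so their share was not recomputed. The members that were fitted, and the fitted list genes with 1 transcript, kept the same counts. These fits therefore do not check them for the tissue of the long reads. Leaving out 1 library gave 25 to 28 list genes, 23 to 25 higher in testis and 1 to 4 higher in ovary (4 without testis 1, which added ccdc36 and spdya, and pttg1 alone without testis 3). Of the member transcripts, 13 were called (12 higher in testis, 1 in ovary). With no filter it was 7 (7 and 0), leaving out 1 library gave 0 to 4 (0 to 4 higher in testis, 0 in ovary), and DESeq2 called 3 and limma on log2(FPKM + 0.1) 2 higher in ovary. An unadjusted p under 0.05 by edgeR was found for 20 member transcripts with all libraries and for 19 to 22 with 1 left out. The share of all transcripts called in those fits is not given. Among named genes that were not called, the sign of 3 turned: tex12 ran from -0.68 to 1.61 with 1 library left out and stood at -0.54 on testis-built transcripts, trip13 at 0.68 on ovary-built and ccdc36 at 0.16 on testis-built transcripts. On ovary-built transcripts ccdc36 was called lower in testis (-1.69, adjusted p = 0.0364 by edgeR). On testis-built transcripts the fold changes of sycp3, hormad1 and rec8 were lower as well, with the same counts, while that of ccdc36 was higher. The cause of the turns in sign was not tested.

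Deviations of same-numbered libraries correlated at -0.02, 0.01 and -0.03, and those of other numbers at -0.007 to 0.037. These values show no pairing by replicate number but cannot exclude one. With the replicate block, log2 fold changes were 4.68 for sycp3, -6.58 for sycp2l, 8.23 for hormad1 and 10.09 for rec8, each past the threshold, 25 list genes were called (stag2 was lost), and edgeR called 0 member transcripts, of which 17 had an unadjusted p under 0.05.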
